A study of Mus musculus with 9 samples.

Results

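The hormones and identity genes of the islet cells other than beta cells were followed in pancreatic islets of male C57BL/6J mice on 3 diets. The 8 genes were Gcg, Irx2 and Ttr for alpha cells, Sst and Hhex for delta cells, Ppy and Pyy for PP cells and Ghrl for epsilon cells. Their Ensembl identifiers in the count table, in that order, are ENSMUSG00000000394, ENSMUSG00000001504, ENSMUSG00000061808, ENSMUSG00000004366, ENSMUSG00000024986, ENSMUSG00000017316, ENSMUSG00000017311 and ENSMUSG00000064177. They were chosen by name, as 8 of the 56941 gene rows of the count table, and all 8 were among the 18548 genes that passed the low-count filter. The mice were wild type and went on their diets at 15 weeks of age, for 9 months. Fat made up 10% of the low fat diet (LFD, the control, 3 libraries), 60% of the high fat diet (HFD, 2 libraries) and 89.9% of the ketogenic diet (KD, 4 libraries). The labels do not say whether each library came from a separate animal or from pooled islets, so the p-values measure the spread between these libraries, which may be technical.

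As background, glucagon from Gcg raises the output of glucose by the liver, and insulin from beta cells lowers blood glucose. Somatostatin from Sst restrains both of those hormones through receptors on neighbouring cells. Pancreatic polypeptide (Ppy) and peptide YY (Pyy) belong to the neuropeptide Y family, and ghrelin (Ghrl) is an appetite-stimulating peptide made in the adult mainly by the stomach and in the islet by rare epsilon cells. Irx2 is an Iroquois homeodomain factor found in alpha cells. Ttr encodes transthyretin, a carrier of thyroid hormone and of retinol through its binding partner Rbp4, made by alpha cells as well as by liver. Hhex is a homeodomain factor needed to keep delta cells in their state. It is also made in pancreatic duct cells, in endothelium and in some blood lineages.

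Promoters of 4 genes are shown because the results below turn on 2 pairs of genes, an abundant hormone and a transcription factor of the same cell type. Each is the stretch of 250 bases before the gene's start in RefSeq's GRCm38.p6 table, written 5′ to 3′ on the gene's strand, and 7 of the 8 genes had an entry that could be used. Capitals mark the letters TGACGTCA, the cAMP response element, or TATAA, searched on both strands. The delta cell pair comes from chr16:23890845-23891094, minus strand, for Sst and from chr19:37434591-37434840, plus strand, for Hhex:
Sst: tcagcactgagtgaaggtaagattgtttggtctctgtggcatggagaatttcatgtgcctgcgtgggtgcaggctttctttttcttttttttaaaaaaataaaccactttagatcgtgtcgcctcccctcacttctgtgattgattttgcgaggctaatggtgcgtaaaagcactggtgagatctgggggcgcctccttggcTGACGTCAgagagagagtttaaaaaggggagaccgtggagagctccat
Hhex: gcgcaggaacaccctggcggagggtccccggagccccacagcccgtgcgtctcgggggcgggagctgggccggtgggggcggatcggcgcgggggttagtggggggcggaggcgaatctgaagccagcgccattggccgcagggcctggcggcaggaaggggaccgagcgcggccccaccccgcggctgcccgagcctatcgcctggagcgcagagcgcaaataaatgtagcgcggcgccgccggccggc
The alpha cell pair comes from chr2:62483654-62483903, minus strand, for Gcg and from chr13:72628570-72628819, plus strand, for Irx2:
Gcg: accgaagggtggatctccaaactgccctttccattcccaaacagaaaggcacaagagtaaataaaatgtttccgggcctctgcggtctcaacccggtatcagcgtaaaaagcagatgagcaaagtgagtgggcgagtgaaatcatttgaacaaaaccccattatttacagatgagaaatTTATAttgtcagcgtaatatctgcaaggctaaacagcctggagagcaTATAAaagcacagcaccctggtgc
Irx2: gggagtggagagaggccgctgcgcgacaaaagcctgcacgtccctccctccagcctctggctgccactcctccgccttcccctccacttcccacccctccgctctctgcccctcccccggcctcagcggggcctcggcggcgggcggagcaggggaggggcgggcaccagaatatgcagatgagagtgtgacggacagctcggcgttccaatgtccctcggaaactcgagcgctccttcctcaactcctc

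The Sst window held TGACGTCA beginning 48 bases before the start, letters found in 1.55% of the 32851 windows of that length in the table. The Gcg window held TATAA beginning 24 bases before the start on the gene's strand, and the same letters on the other strand 71 bases before it. TATAA was found in 22.8% of the windows. The hormone windows held few CpG dinucleotides, 8 for Sst and 7 for Gcg, against 32 for Hhex and 19 for Irx2. GC content was 47.2% for Sst and 44.8% for Gcg, against 76.0% for Hhex and 68.4% for Irx2. The Ppy and Pyy windows, on chromosome 11 where the 2 genes are neighbours, each held TATAA, 31 and 27 bases before the start. A match of letters is a description of the window and not evidence of a factor's binding.

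Library totals ran from 15513502 to 26588390 counts, and the genes tested held 99.86% to 99.95% of them. Of the 15 beta cell genes, which mark islets, none was at 0 in any library, and together they held 1.79% to 13.2% of counts. The 30 acinar genes, which encode digestive enzymes and their regulators in the exocrine pancreas, took 15.1% to 36.2% of counts in LFD, 11.4% to 19.1% in HFD and 20.6% to 61.5% in KD. KD replicates 1 and 3 had the highest acinar shares, 61.5% and 57.4%. Levels are given as CPM, counts scaled to a common library size, on library sizes scaled by the trimmed mean of M-values (TMM). In whole islets, fewer cells of a type and less RNA per cell cannot be told apart.

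Per kilobase of exon, Gcg had the highest mean level of the 8 over all 9 libraries, 5946 CPM per kilobase. Ppy followed with 2526, Pyy with 1137, Sst with 1049 and Ttr with 562 CPM per kilobase. The 2 transcription factors and Ghrl were far lower, Irx2 at 3.32, Hhex at 2.16 and Ghrl at 1.35 CPM per kilobase. Neighbours in this order overlapped in their ranges over libraries, except Ttr and Irx2, whose ranges were apart.

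**Figure D1:**
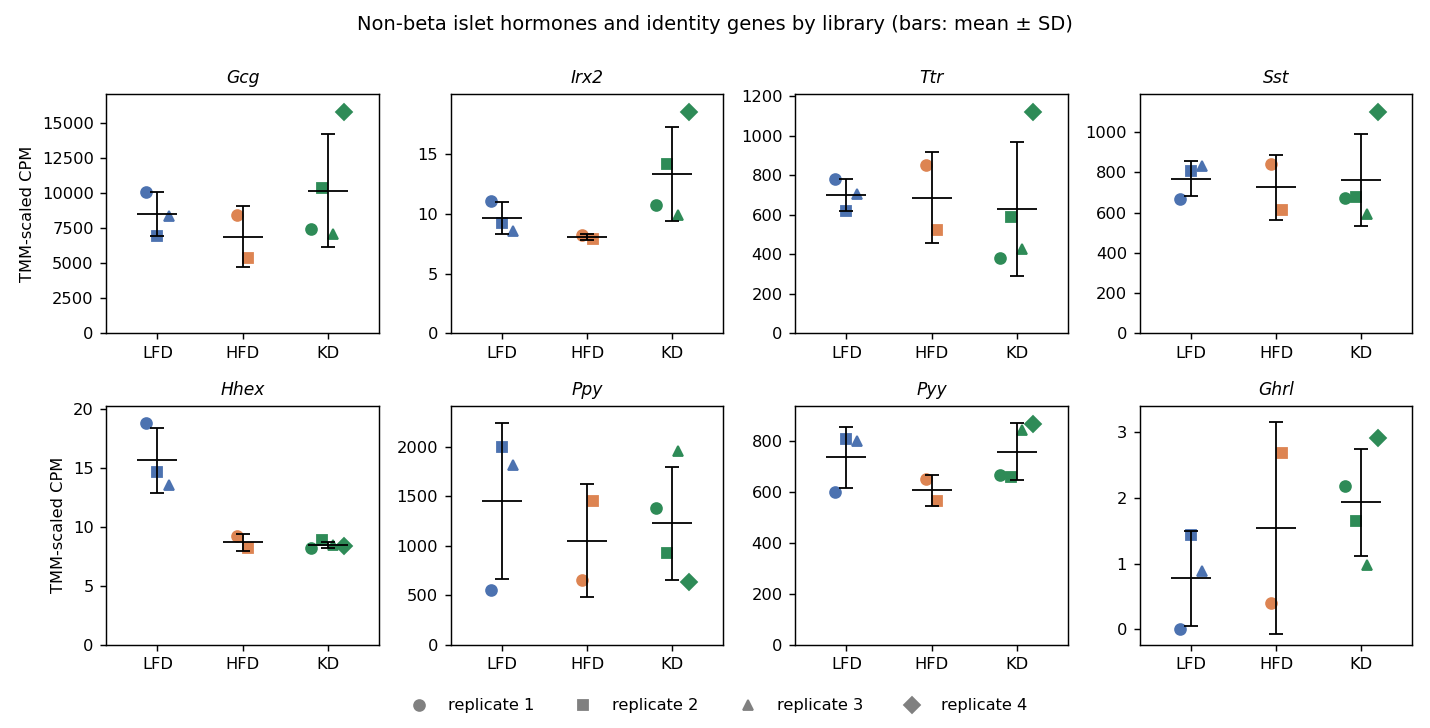
Level of each gene in TMM-scaled CPM (y axis, from its own scale in each panel) by diet (x axis). Each symbol is a library, and the bars are the mean and SD of a diet. Hhex is the gene whose 4 KD libraries, between 8.25 and 8.87, all lie below the 3 LFD libraries, while Ppy is spread widely within each diet.

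Against LFD, KD libraries had a lower level of Hhex, and no other gene of the 8 passed the test. That is 1 of 8 called, against 4.12% of all genes tested in this comparison with 3.14% called lower and 0.981% higher. Against LFD, HFD libraries gave 0 of 8 genes called, with 0% of all genes called, and KD against HFD likewise gave 0 of 8 with 0% called (edgeR's quasi-likelihood test with Benjamini-Hochberg adjustment over all genes tested). At an unadjusted p under 0.05, 1 of the 8 genes passed in each comparison, against 22.7%, 9.99% and 22.7% of all genes in KD against LFD, HFD against LFD and KD against HFD. The median log2 fold change of the 8 genes was 0.015 for KD against LFD, -0.27 for HFD against LFD and 0.27 for KD against HFD, beside -0.020, -0.0017 and -0.039 over all genes tested. The 3 comparisons share libraries, so these medians are not independent of each other.

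**Figure D2:**
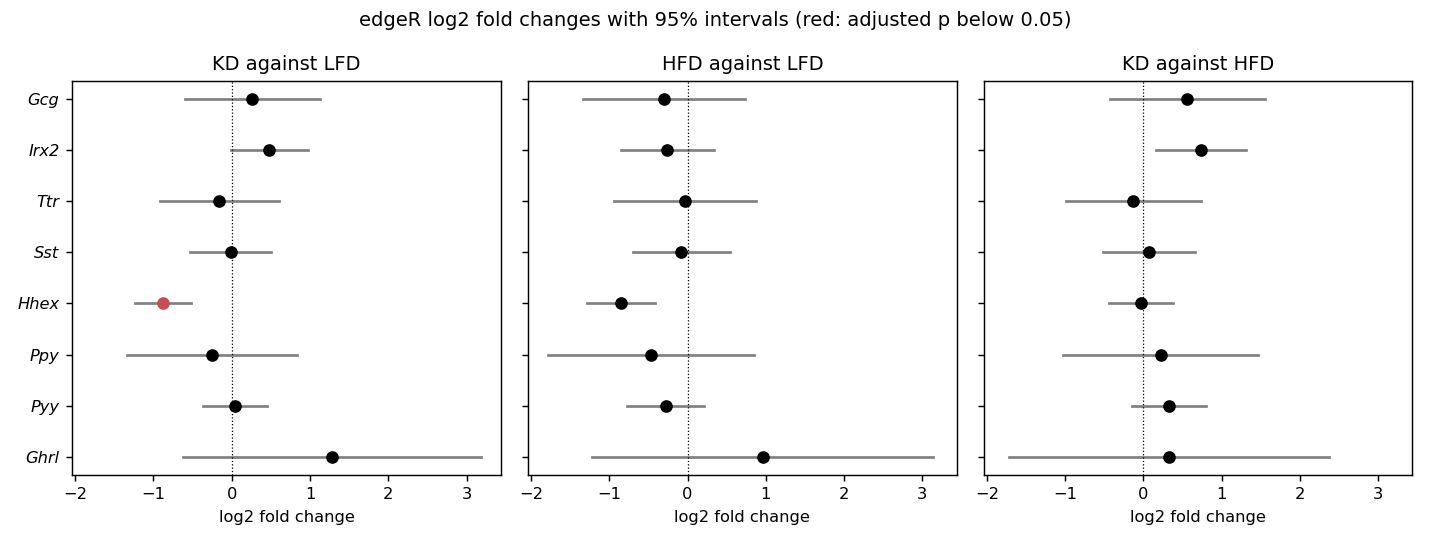
Log2 fold change of each gene (x axis) with its 95% interval in 3 comparisons between diets, from edgeR over all 9 libraries; red marks an adjusted p below 0.05. Hhex in KD against LFD is the red point at -0.88, and the intervals of Ppy and Ghrl are the widest.

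In the alpha cell group, Gcg did not pass the test in any comparison. The Gcg level was 10091, 6966 and 8391 CPM in LFD, 8417 and 5371 in HFD, and 7468, 10341, 7114 and 15790 in KD. The diets overlapped, and KD replicate 4 stood above all other libraries. The log2 fold change was 0.26 ± 0.39 (SE, n = 4 against 3) for KD against LFD, with a 95% interval from -0.60 to 1.12 and an adjusted p of 0.732 in edgeR's quasi-likelihood test. For HFD against LFD it was -0.30 ± 0.47 (adjusted p = 0.842 in edgeR), and for KD against HFD 0.56 ± 0.45 (adjusted p = 0.484 in edgeR). As a share of unscaled library totals, Gcg was 4042 and 4398 CPM in KD replicates 1 and 3, the libraries with the highest acinar shares, and 8730 and 18446 in KD replicates 2 and 4. On that scale Gcg was 8632 to 10609 CPM in LFD, and its log2 fold change for KD against LFD turned to -0.16. Without KD replicate 4 it was -0.030.

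Irx2 was 11.1, 9.23 and 8.54 CPM in LFD, 8.20 and 7.88 in HFD, and 10.7, 14.1, 9.89 and 18.5 in KD. The 2 HFD libraries lay below all LFD and all KD libraries, and KD overlapped with LFD. For KD against HFD the log2 fold change of Irx2 was 0.74 ± 0.26 (SE), with a 95% interval from 0.17 to 1.30, and it did not pass the adjusted threshold (adjusted p = 0.147 in edgeR). The libraries of 33.9% of all genes tested did not overlap in that comparison, and those of 27.5% in HFD against LFD. The separation of Irx2 is therefore not a result about this gene. For KD against LFD the Irx2 value was 0.48 ± 0.22, with an interval from -0.013 to 0.97 and an adjusted p of 0.232 in edgeR. With library totals unscaled these values were 0.054 for KD against HFD and 0.011 for KD against LFD.

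Ttr was 782, 619 and 704 CPM in LFD, 851 and 523 in HFD, and 380, 588, 428 and 1120 in KD. The KD libraries spanned the ranges of the other diets, from the lowest level in KD replicate 1 to the highest in KD replicate 4. The log2 fold changes were -0.16 ± 0.34 for KD against LFD, -0.030 ± 0.41 for HFD against LFD and -0.13 ± 0.39 for KD against HFD, with edgeR adjusted p-values of 0.824, 0.984 and 0.876. The interval for KD against LFD ran from -0.92 to 0.60 and so leaves room for changes of either sign.

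Gcg was compared with Irx2 and with Ttr over the libraries. Over the 9 libraries, log2 CPM of Gcg and Irx2 had a Pearson r of 0.864 (exact permutation p = 0.00309, adjusted p = 0.0154 over 5 pairs) and a Spearman rho of 0.733 (exact permutation p = 0.0311, adjusted p = 0.156). Without HFD replicate 2 and KD replicate 4, the libraries farthest from the median of Gcg, r was 0.566. For Gcg and Ttr, r was 0.718 (exact permutation p = 0.0286, adjusted p = 0.0683), rho was 0.633 (exact permutation p = 0.0760, adjusted p = 0.190) and r without those 2 libraries was 0.517. Deviations from the diet means had an r of 0.885 for Gcg with Irx2 and 0.971 for Gcg with Ttr. These relations rest in part on the 2 outlying libraries, and all genes of a library share its scale and its acinar share.

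Within a library, Ttr counts were a smaller percent of Gcg counts in every KD library than in any LFD library. The percent was 7.75%, 8.89% and 8.39% in LFD, 10.1% and 9.74% in HFD, and 5.09%, 5.68%, 6.02% and 7.10% in KD. All 4 KD libraries were below all 3 LFD libraries, which in turn were below both HFD libraries. In CPM, the KD and LFD libraries of 19.7% of all genes tested did not overlap, and no such share was computed for ratios. The KD minus LFD difference of Ttr over Gcg was -0.49 on the log2 scale (two-sided exact permutation p = 0.0571, adjusted p = 0.229 over 8 ratios). A p of 0.0571 is the smallest this test can give with 4 against 3 libraries, so it cannot pass 0.05. Among the KD libraries the percent was lowest in replicate 1, with the highest acinar share (61.5% of counts). It was highest in replicate 4, with the lowest acinar share (20.6%). Replicates 2 and 3 went the other way, with 5.68% at an acinar share of 45.2% and 6.02% at one of 57.4%. Whether the ratio depends on the acinar share or on other cells in the library was not tested. Irx2 counts were 0.110%, 0.133% and 0.102% of Gcg counts in LFD, 0.0975% and 0.147% in HFD, and 0.144%, 0.137%, 0.139% and 0.117% in KD, a log2 difference of 0.23 for KD minus LFD (exact permutation p = 0.114, adjusted p = 0.229).

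**Figure D3:**
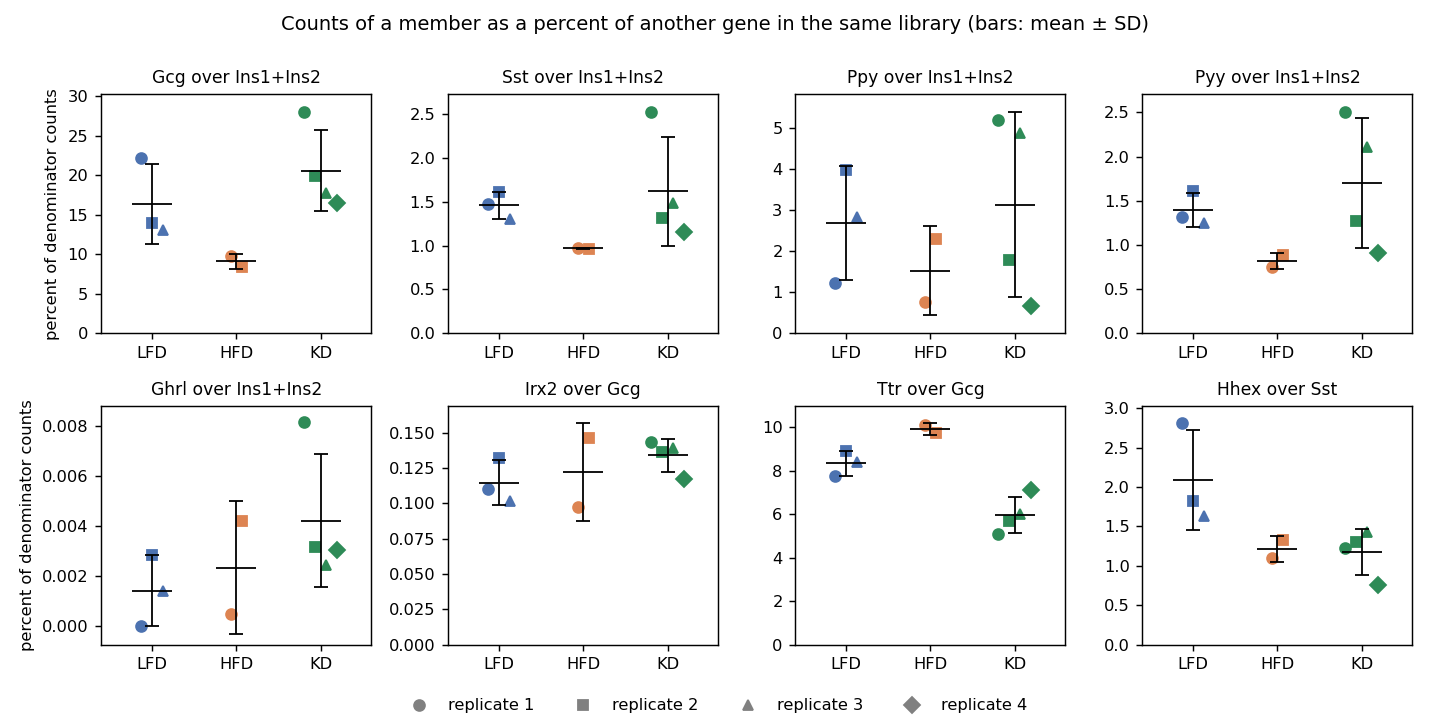
Counts of a gene as a percent of the counts of another gene or of both insulin genes in the same library (y axis, own scale in each panel) by diet (x axis). Each symbol is a library, and the bars are the mean and SD. Ttr over Gcg and Hhex over Sst are the 2 ratios in which no KD library overlaps with an LFD library. Hhex over Sst uses the same Hhex counts as the test of the Hhex level, so it is not a separate observation. In CPM, the KD and LFD libraries of 19.7% of all genes tested did not overlap, and no such share was computed for ratios.

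In the delta cell group, Hhex was lower in KD than in LFD and Sst did not pass the test. Hhex was 18.8, 14.7 and 13.6 CPM in LFD, 9.20 and 8.17 in HFD, and 8.25, 8.87, 8.46 and 8.38 in KD. Every HFD and KD library was below every LFD library, and KD and HFD overlapped. The means were 15.7 ± 2.78 (SD, n = 3) in LFD, 8.69 ± 0.731 (SD, n = 2) in HFD and 8.49 ± 0.267 (SD, n = 4) in KD. These levels rest on 289 to 327 counts in LFD, 184 and 195 in HFD and 95 to 199 in KD. The KD against LFD log2 fold change was -0.88 ± 0.16 (SE), with a 95% interval from -1.24 to -0.53 and an adjusted p of 0.0181 in edgeR's quasi-likelihood test, lower in 4 of 4 KD libraries. The KD and LFD libraries of 19.7% of all genes tested did not overlap, with KD lower in 10.1% and higher in 9.69%.

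For HFD against LFD the Hhex value was of nearly the same size, -0.85 ± 0.20 (SE), with a 95% interval from -1.29 to -0.41. It did not pass the adjusted threshold (unadjusted p = 0.00122, adjusted p = 0.236 in edgeR), while the DESeq2 Wald test gave -0.87 with an adjusted p of 0.0114. KD against HFD did not pass the test, at -0.032 ± 0.19 with an interval from -0.44 to 0.38 (adjusted p = 0.940 in edgeR). The HFD and LFD libraries of 27.5% of all genes did not overlap, with HFD lower in 14.1%. Both comparisons with LFD share its 3 libraries.

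Sst was 669, 805 and 832 CPM in LFD, 841 and 612 in HFD, and 672, 679, 593 and 1100 in KD. The diets overlapped, and KD replicate 4 was the highest library, as it was for Gcg, Irx2, Ttr, Pyy and Ghrl. The KD against LFD log2 fold change was -0.014 ± 0.24 with an interval from -0.53 to 0.50 (adjusted p = 0.979 in edgeR). The values were -0.081 ± 0.28 for HFD against LFD and 0.067 ± 0.27 for KD against HFD, with edgeR adjusted p-values of 0.935 and 0.909.

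No correlation of Hhex with Sst passed a test. Log2 CPM of the 2 genes had a Pearson r of 0.054 over 9 libraries (exact permutation p = 0.903, adjusted p = 0.903 over 5 pairs) and a Spearman rho of 0.217 (exact permutation p = 0.581, adjusted p = 0.581). Without HFD replicate 1 and KD replicate 4 the r was 0.584. Hhex counts were 2.81%, 1.82% and 1.63% of Sst counts in LFD, 1.09% and 1.33% in HFD, and 1.23%, 1.31%, 1.43% and 0.762% in KD. All 6 HFD and KD libraries were below the 3 LFD libraries. The KD minus LFD difference of this ratio was -0.82 on the log2 scale (exact permutation p = 0.0571, the smallest this test can give, adjusted p = 0.229). The ratio uses the same Hhex counts as the test of the Hhex level, so it is not a separate observation.

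Lists of markers of other cell types were read beside Hhex, against 3.14% of all genes called lower and 22.7% with an unadjusted p under 0.05 in KD against LFD. Of 10 duct markers, 3 were called lower in KD than in LFD by edgeR, 7 had an unadjusted p under 0.05 and 8 had a log2 fold change below 0. The called genes were Krt19, a keratin of duct epithelium (-1.99 ± 0.33, adjusted p = 0.0140), the chloride channel gene Cftr (-1.79 ± 0.28, adjusted p = 0.0104) and the secreted phosphoprotein gene Spp1 (-1.16 ± 0.19, adjusted p = 0.0115). The summed level of all 10 duct markers was 531 to 679 CPM in LFD, 357 to 387 in HFD and 402 to 579 in KD. For this sum KD overlapped with LFD and HFD did not, and none of the 10 was at 0 in any library. Of 12 B and T lymphocyte markers, 11 were called lower in KD than in LFD. Their sum was 45.1 to 200 CPM in LFD, 16.3 to 21.6 in HFD and 3.65 to 8.15 in KD. No lymphocyte marker was at 0 in LFD, 2 and 3 were at 0 in the HFD libraries and 3 to 9 in the KD libraries, among them the B cell gene Pax5 in KD replicates 1 and 2.

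Of 9 fibroblast and stellate markers, 0 were called and all 9 were below 0 in KD against LFD by edgeR, where 6 had an unadjusted p under 0.05. Over all genes, 48.1% were above 0 in this comparison. The fibroblast sum was 432 to 809 CPM in LFD, 487 to 617 in HFD and 216 to 463 in KD, overlapping with LFD in both diets. Of 9 macrophage markers, 1 was called lower in KD than in LFD (Lyz2, singled out after its value was seen). All 9 were below 0 in that comparison, and 5 had an unadjusted p under 0.05 in edgeR. The macrophage sums were 73.2 to 130 CPM in LFD, 90.6 to 121 in HFD and 36.3 to 71.9 in KD. For this sum KD did not overlap with LFD and HFD did. Endothelial sums were 394 to 491 CPM in LFD, 663 to 718 in HFD and 360 to 557 in KD. The part of any of these cell types in the Hhex result was not tested. The fits that follow show only how the Hhex value moved. The lymphocyte sums did not overlap between the diets, so a fit with these markers cannot tell their part from that of the diet.

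With the mean log2 level of the duct markers as a covariate, the Hhex value for KD against LFD was -0.46 ± 0.36 and was no longer called (adjusted p = 0.510 in edgeR). With the lymphocyte markers it was -0.66 ± 0.54 (adjusted p = 0.662 in edgeR), and with the fibroblast markers -0.72 ± 0.23 (adjusted p = 0.194 in edgeR). When libraries were scaled to 16 genes shared by all endocrine cells it was -0.96 ± 0.33 (adjusted p = 0.255 in edgeR). These 4 fits were chosen after the data were seen. Over all 18548 genes they called 868 with the duct markers, 0 with the lymphocyte markers, 15 with the fibroblast markers and 258 with the endocrine scaling, against 764 in the fit without them, so with the lymphocyte or fibroblast markers nearly all calls were lost and not that of Hhex alone. Leaving out LFD replicate 1, the library with the highest Hhex level, gave -0.73 ± 0.18 (adjusted p = 0.0850 in edgeR). Without KD replicate 2 or 3 the adjusted p was 0.0555 or 0.0576. On unscaled library totals, which move the median of all genes by -0.59 in this comparison, Hhex was at -1.44 and stayed called (adjusted p = 0.00988 in edgeR).

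**Figure D4:**
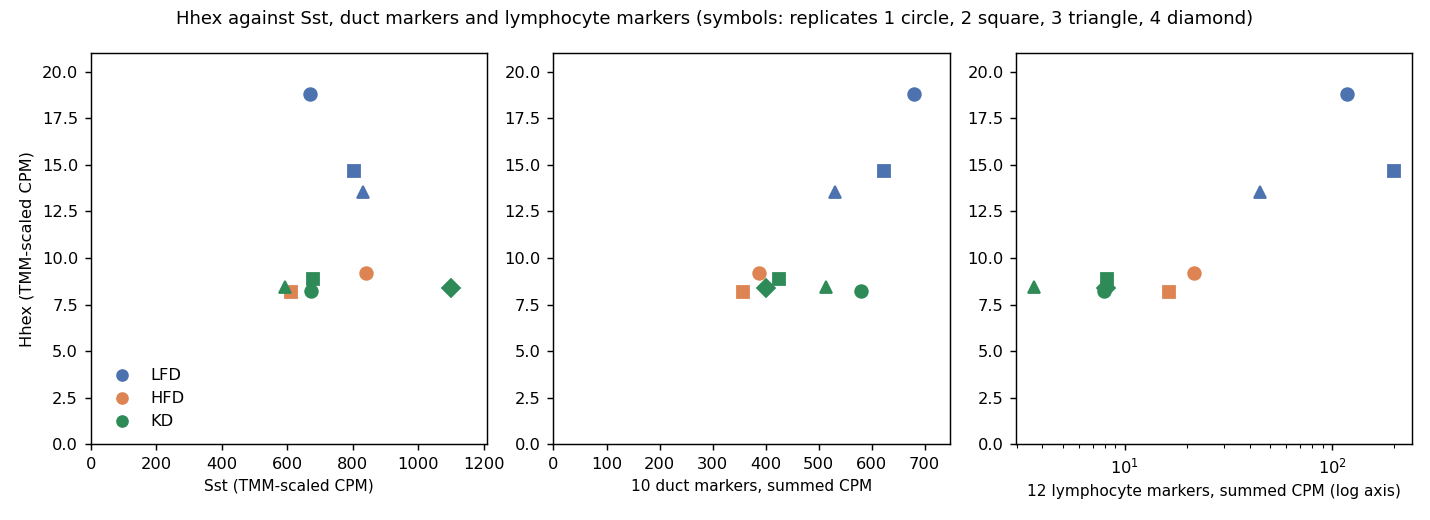
Hhex level in TMM-scaled CPM (y axis) against the level of Sst, the summed level of 10 duct markers and that of 12 lymphocyte markers (x axes, the last on a log axis), with 1 symbol per library and colours for the diets. The 3 LFD libraries stand apart in Hhex and in lymphocyte markers, while Sst does not separate the diets.

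**Figure D5:**
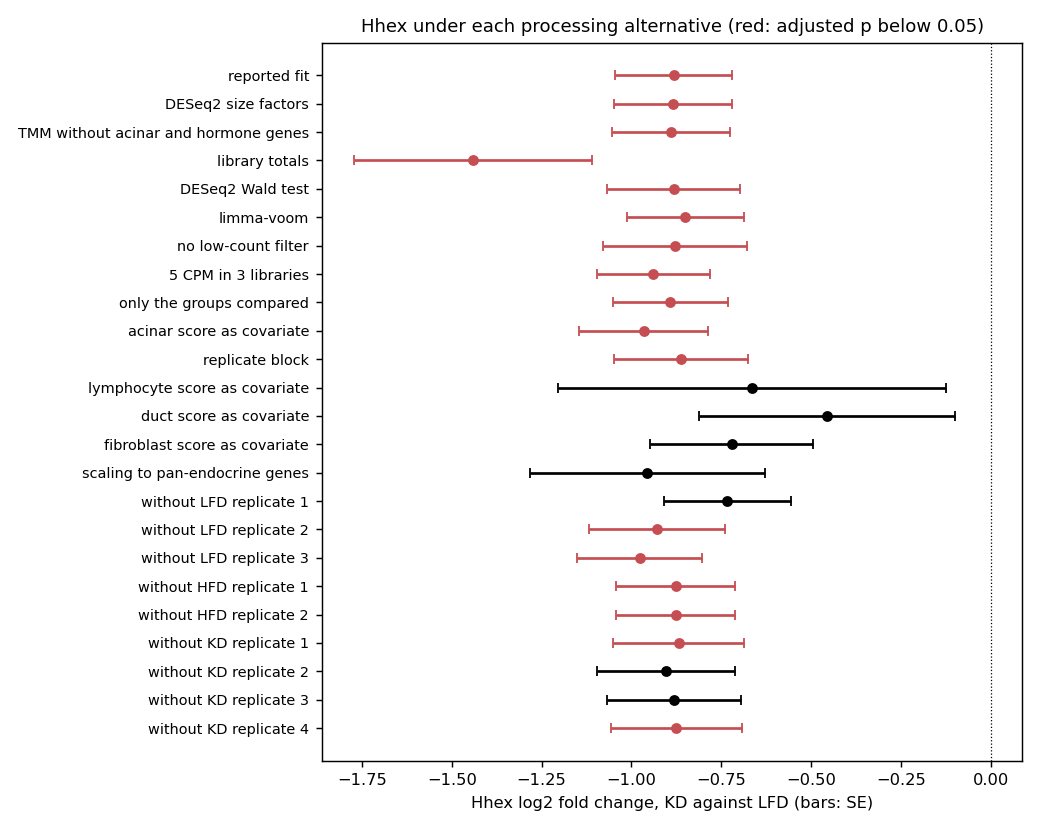
Log2 fold change of Hhex in KD against LFD (x axis) with its SE under each processing alternative (y axis); red marks an adjusted p below 0.05. All values are below 0, from -1.44 with library totals to -0.46 with the duct score, and 7 of the 23 alternatives lose the call.

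In the PP cell group, neither Ppy nor Pyy passed the test in any comparison, and Ppy was among the most variable of the 8 genes within a diet. Ppy was 552, 1994 and 1815 CPM in LFD, 649 and 1455 in HFD, and 1386, 931, 1954 and 631 in KD. Low and high libraries occurred in all 3 diets. The highest library was 3.61 times the lowest in LFD, 2.24 times in HFD and 3.10 times in KD. The KD against LFD log2 fold change was -0.25 ± 0.49, with a 95% interval from -1.33 to 0.84 that holds changes of either sign (adjusted p = 0.808 in edgeR). For HFD against LFD the value was -0.47 ± 0.60 and for KD against HFD 0.22 ± 0.56, with edgeR adjusted p-values of 0.802 and 0.850.

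Pyy, whose gene lies beside Ppy, was steadier. It was 599, 807 and 801 CPM in LFD, 650 and 563 in HFD, and 667, 658, 843 and 868 in KD. The 2 HFD libraries were below all 4 KD libraries but overlapped with LFD. The KD and HFD libraries of 33.9% of all genes tested did not overlap, with KD higher in 15.7%, so this separation is not a result about Pyy. The log2 fold changes were 0.044 ± 0.19 for KD against LFD, -0.28 ± 0.23 for HFD against LFD and 0.32 ± 0.22 for KD against HFD, with edgeR adjusted p-values of 0.918, 0.681 and 0.391. Ppy and Pyy had a Pearson r of 0.337 over the 9 libraries (exact permutation p = 0.357, adjusted p = 0.446) and a Spearman rho of 0.333 (exact permutation p = 0.385, adjusted p = 0.482). Without LFD replicate 1 and KD replicate 4 the r was 0.601. The within-diet SD of log2 CPM was 0.847 for Ppy and 0.215 for Pyy.

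Ghrl, the epsilon cell hormone, was near the limit of detection. The counts were 0, 32 and 19 in LFD, 8 and 64 in HFD, and 28, 37, 11 and 65 in KD. In CPM these were 0, 1.43 and 0.891 in LFD, 0.400 and 2.68 in HFD, and 2.18, 1.65, 0.980 and 2.91 in KD. The 0 counts in LFD replicate 1 allow a level of up to 0.184 CPM at 3 counts. The diets overlapped, and the KD against LFD log2 fold change of 1.28 ± 0.86 had a 95% interval from -0.62 to 3.19 (adjusted p = 0.404 in edgeR). Without LFD replicate 1, the library at 0, the value was 0.73. Mboat4, the enzyme that acylates ghrelin, did not pass the low-count filter and had 3 counts in KD replicate 2, 1 in KD replicate 4 and 0 in the other 7 libraries.

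As a percent of the summed Ins1 and Ins2 counts, the other hormones were lower in both HFD libraries than in all LFD libraries for Gcg, Sst and Pyy. Ppy and Ghrl overlapped. These ratios share the insulin counts, and in CPM Ins1 was higher in both HFD libraries than in all LFD libraries. In CPM, Gcg, Sst and Pyy each overlapped between HFD and LFD. Of all genes tested, 27.5% had CPM that did not overlap between the HFD and LFD libraries, and no such share was computed for ratios. Gcg was 22.2%, 13.9% and 13.1% of insulin counts in LFD, 9.75% and 8.45% in HFD, and 28.0%, 19.97%, 17.8% and 16.6% in KD. Sst was 1.48%, 1.61% and 1.30% in LFD, 0.975% and 0.964% in HFD, and 2.52%, 1.31%, 1.48% and 1.15% in KD. Pyy was 1.32%, 1.61% and 1.25% in LFD, 0.753% and 0.886% in HFD, and 2.51%, 1.27%, 2.11% and 0.909% in KD. With 2 against 3 libraries the smallest p of the exact permutation test is 0.2, so no permutation test was made for HFD and the values are given as a description. Ins1 and Ins2 had log2 fold changes of 0.59 ± 0.57 and 0.46 ± 0.65 for HFD against LFD and were not called (adjusted p = 0.734 and 0.822 in edgeR).

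For KD minus LFD, the log2 difference in the ratio to insulin was 0.34 for Gcg, 0.083 for Sst, -0.031 for Ppy, 0.18 for Pyy and 2.54 for Ghrl. The exact permutation p-values were 0.286, 0.914, 0.971, 0.686 and 0.114, and adjusted over 8 ratios they were 0.457, 0.971, 0.971, 0.914 and 0.229. None passed the threshold. The Ghrl ratio depends on the library at 0, without which the difference was 0.903.

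Of 74 other genes on lists for alpha, delta, PP and epsilon cells, peptide hormone receptors, peptide processing and the shared endocrine programme, 67 were tested and 0 were called by edgeR in any comparison. At an unadjusted p under 0.05 there were 13 for KD against LFD, 5 for HFD against LFD and 18 for KD against HFD, against 22.7%, 9.99% and 22.7% of all genes. The DESeq2 Wald test called 4, 2 and 8 genes of the lists and the 8 genes together. Over all 18548 genes tested it called 1773, 268 and 1518. The median log2 fold changes of these 67 genes were 0.073, 0.25 and -0.077, and 39, 46 and 27 of them were above 0. Over all genes tested, 48.1%, 49.8% and 46.6% were above 0. Genes not tested for low counts were Aqp3, Mboat4, Npy2r, Npy4r, Npy5r, Sstr4 and Sstr5.

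On the alpha cell list of 20 genes, 12 were above 0 and 8 below in KD against LFD, and 12 and 8 in KD against HFD. In KD against HFD, 10 had an unadjusted p under 0.05 and the median was 0.48, beside 22.7% and -0.039 over all genes tested. With library totals unscaled, Gcg and Irx2 of this list were at -0.046 and 0.054 in that comparison. Pcsk2, the convertase that cuts proglucagon to glucagon in alpha cells, was 1761 ± 370 CPM (SD, n = 3) in LFD, 2305 ± 89.7 (SD, n = 2) in HFD and 1972 ± 757 (SD, n = 4) in KD. On the delta cell list of 16 genes, 8 were above and 8 below 0 in KD against LFD, with Hhex the gene called. Its abundant members Isl1 and Pdx1, factors shared with beta cells, had log2 fold changes of -0.29 ± 0.19 and 0.39 ± 0.23 (adjusted p = 0.385 and 0.329 in edgeR). On the PP and epsilon list, 7 of 11 tested genes were above 0 in KD against LFD, and the factor gene Etv1 was at 0.070 ± 0.24 (adjusted p = 0.895 in edgeR).

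Among 9 tested peptide receptors, 5 were above and 4 below 0 in KD against LFD. Glp1r, the receptor for the glucagon-like peptide cut from the Gcg precursor, was 470 ± 149 CPM (SD, n = 3) in LFD, 473 ± 45.9 (SD, n = 2) in HFD and 472 ± 66.5 (SD, n = 4) in KD. Insr, the insulin receptor, and Sstr3, a somatostatin receptor, had log2 fold changes of 0.26 ± 0.16 and 0.16 ± 0.25 for KD against LFD (adjusted p = 0.381 and 0.743 in edgeR). All 11 tested peptide processing genes and all 16 shared endocrine genes were above 0 for HFD against LFD, with medians of 0.39 and 0.31, and 0 were called by edgeR, with 0 at an unadjusted p under 0.05. Among them were Cpe, a carboxypeptidase that trims hormone precursors (0.38 ± 0.37), Pam, which amidates peptides (0.47 ± 0.34), and the granule proteins Chga (0.25 ± 0.41) and Scg2 (0.69 ± 0.51). Scaling the libraries to the shared endocrine genes moved the median of all genes by -0.37 in this comparison. That scaling uses the same 16 genes, so the shift follows from their values and is not a separate observation.

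The genes most like Gcg over the 9 libraries, by Pearson r of log2 CPM among 10414 candidates, were Gpx3 at 0.910, Mamld1 at 0.875, Irx2 at 0.864, Rbp4 at 0.863 and Smarca1 at 0.843. Irx2, Rbp4 and Smarca1 were on the alpha or delta cell lists. For Sst they were Gemin6, C8b, Snx4, Spred3 and Arhgef3, from 0.906 to 0.890. For Ppy they were Khdc4, Sufu, Setdb1, Malsu1 and Ncor1, from 0.896 to 0.849, and for Pyy Plppr2, Tsnax, Dtnbp1 and the delta cell list gene Efnb3, from 0.887 to 0.846. For Ghrl they were Timmdc1, Wrap73, Pcid2, Pcyox1l and Orai3, from 0.950 to 0.927. With 9 libraries and so many candidates such values describe these libraries only, and all genes of a library share its scale.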

How the data were processed

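The authors deposited raw counts per gene for 56941 Ensembl identifiers, and the columns were assigned to samples through the sample titles. Per the labels' protocols, polyadenylated RNA was made into strand-specific libraries. Per the submitters' processing notes, cutadapt 1.16, STAR 2.7.9a, featureCounts 1.6.3 and DESeq2 1.40.2 were used with GRCm39 (mm39). The annotation and the strand setting are not given in the sources used here. Isolation and sequencing dates were not given in the labels, so a batch effect and a diet effect cannot be told apart.

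Symbols (51948 identifiers matched), exon lengths and, apart from the promoters, annotation came from GENCODE M21 on GRCm38, so the only coordinates printed are those of the promoter windows, on GRCm38.p6. edgeR 4.0.16 (R 4.3.3) was fitted to all 9 libraries with a mean per diet, after filterByExpr and TMM scaling, with robust quasi-likelihood tests, two-sided, adjusted by Benjamini-Hochberg over 18548 genes at a threshold of 0.05. The standard error was the size of the log2 fold change over the square root of F. Ratios within a library used log2 of counts plus 0.5 and two-sided exact permutation tests over 35 splits (scipy 1.17.1). Log2 CPM used a prior count of 2. Libraries of a diet differed from each other by more than counting noise. The floor of 3 counts covers counting error only.

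Other settings tried numbered 19, among them DESeq2 1.42.0, limma 3.58.1 with voom, other scalings and filters, an acinar covariate, a replicate block and the omission of each library, and 4 more were chosen after the data were seen. Besides the 8 genes, the text names the 3 most abundant genes of each list, called genes and, for each hormone, the 5 genes of highest Pearson r with a mean of at least 5 CPM. The values of 1 gene under this rule, for Pyy, are not reported here. The fit was tested on simulated data. The 8 genes, the lists and the tests were chosen with earlier results of these data known.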

Additional observations from a re-analysis of the deposited data

Results flagged for a closer look

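The Sst level of KD replicate 4, 1100 CPM, lay far above the other 3 KD libraries (672, 679 and 593 CPM). Its gap to the nearest of them was 0.830 of the range of the group, just above Dixon's 95% critical value for 4 samples. Levels of the 8 genes and the 8 ratios were examined in the KD group, 16 groups of values in all, and chance flags about 1 in 20. Of all libraries, the same one had the highest Gcg, Irx2, Ttr, Pyy and Ghrl levels. It also had the highest summed CPM of the beta cell genes and of the shared endocrine genes. Of the KD libraries it had the lowest acinar share, 20.6% of counts.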

How the results depend on the processing

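Over the 23 alternatives, Hhex in KD against LFD kept its direction, with values from -1.44 to -0.46 and adjusted p from 0.000154 to 0.662. Of the 8 genes, 0 were called in that comparison with the lymphocyte, duct or fibroblast score, or with scaling to endocrine genes, and 0 or 1 when a library was left out. Over all genes those 4 settings called 0, 868, 15 and 258 of 18548. For HFD against LFD, the DESeq2 Wald test called 1. Of the 8 genes and the lists together, 1 was called in KD against LFD, and this count was 4 with library totals, 4 with DESeq2, 2 without the low-count filter, 16 with the acinar score, 7 with the replicate block, 7 with the duct score, 0 with the lymphocyte or fibroblast score or endocrine scaling, and 0 to 4 when a library was left out (0 in the absence of LFD replicate 1 or of KD replicate 2 or 3, 2 in that of LFD replicate 3, 4 in that of KD replicate 4). HFD against LFD went from 0 to 2 with DESeq2 and to 3 with the replicate block. For KD against HFD, 0 became 4 with library totals, 8 with DESeq2, 1 without the filter, 20 with the block, and 0 to 14 with a library left out, 14 without KD replicate 4. Over all genes, the replicate block gave 2003, 395 and 2320 calls against 764, 0 and 0, library totals 1653, 0 and 1550, DESeq2 1773, 268 and 1518, and limma-voom 214, 0 and 0. The acinar score gave 1455, 0 and 2 calls, and the fit without the filter 1062, 81 and 316 of 31086 genes. Omitting KD replicate 4 gave 1348, 0 and 1793 of 18225 genes, and omitting LFD replicate 3 gave 929, 194 and 0 of 18275. In KD against LFD, omitting LFD replicate 1, KD replicate 2 or KD replicate 3 gave 177, 199 or 151. Same-numbered LFD and KD libraries had correlations of their deviations from the diet means of 0.222, -0.016 and -0.0026. The labels do not say whether the numbers pair the libraries, and so few correlations cannot decide it. Under the block, Hhex in KD against LFD was -0.86 (adjusted p = 0.0160 in edgeR).

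The other values that changed sign had not been called, and the cause was not tested. In KD against LFD, library totals gave Gcg -0.16 and Pyy -0.52, and the replicate block gave Gcg -0.012, Ppy 0.16 and Pyy -0.029. There the acinar score gave Sst 0.22 and Ttr 0.10, the filter of 5 CPM in 3 libraries Pyy -0.011, the lymphocyte score Sst 0.19, Pyy -0.070 and Ttr 0.11, the duct score Pyy -0.38 and Ghrl -1.05, and the fibroblast score Pyy -0.22. In HFD against LFD, library totals gave Sst 0.092 and Ttr 0.15, the lymphocyte score Sst 0.083, Irx2 0.24 and Ttr 0.19, and the duct score Ghrl -2.50. In KD against HFD, library totals gave Gcg -0.046, Sst -0.59, Ppy -0.78, Pyy -0.42 and Ghrl -0.46. There the block gave Sst -0.16 and Hhex 0.036, the acinar score Ppy -0.082 and Ttr 0.46, the fibroblast score Ppy -0.10 and Hhex 0.056, the duct score Ttr 0.0091, the lymphocyte score Hhex 0.0083, and endocrine scaling Ttr 0.053 and Hhex 0.30.

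With each library left out in turn, KD against LFD ranged from -0.030 to 0.41 for Gcg, -0.25 to 0.088 for Sst, -0.63 to 0.050 for Ppy, -0.084 to 0.12 for Pyy and -0.59 to 0.021 for Ttr. HFD against LFD ranged from -0.33 to 0.13 for Sst, -1.16 to 0.00020 for Ppy, -0.98 to 1.74 for Ghrl and -0.42 to 0.28 for Ttr. KD against HFD ranged from -0.16 to 0.32 for Sst, -0.24 to 0.92 for Ppy, -0.45 to 2.27 for Ghrl, -0.56 to 0.27 for Ttr and -0.11 to 0.061 for Hhex. Ratios over the endocrine genes in place of insulin gave -0.0016 for Gcg, -0.26 for Sst and -0.16 for Pyy, the block gave 0.58 for Ppy over insulin, and omissions gave -0.15 to 0.22 for Sst, -0.52 to 0.58 for Ppy and -0.044 to 0.44 for Pyy. Ghrl had no value under the filter of 5 CPM. Where an HFD library was left out, the other was assumed to vary like the other groups. The limits are the 2 HFD libraries, the low counts of Ghrl and the acinar share, which lowers the counts left for islet genes.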
